A study of Homo sapiens with 9 samples.

Results

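The 10 genes described here encode feedback inhibitors of MAP kinase signaling, namely the dual specificity phosphatases *DUSP1*, *DUSP4*, *DUSP5*, *DUSP6* and *DUSP10*, the Sprouty genes *SPRY1*, *SPRY2* and *SPRY4*, and the Sprouty-related genes *SPRED1* and *SPRED2*. They were taken by symbol, and each matched 1 of the 26364 gene names in the deposited table of read counts. The counts came from 9 RNA-seq libraries of A549 cells, a human lung adenocarcinoma line, made to study *LOC388942-ALK* (*LA*), a fusion of *ALK* with an intergenic region. The control group (2 libraries) is labelled WT. The *LA* group (2 libraries) is labelled with the guides sgLOC388942 and sgALK. The sgScr group (3 libraries) and the sg*FOS* group (2 libraries) are *LA* cells that carry the same pair of guides plus sgScr, the guide the study used as the reference, or sgFOS, a guide against *FOS*. The methods state that the guides were delivered to Cas9-expressing A549 cells and that fusion cells were grown from single cells as monoclonal strains. The labels do not say which strain or which *FOS* guide a library came from, whether the control cells carried Cas9, or whether replicates were separate cultures, so the *p*-values measure only the spread between these libraries.

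Growth factor receptors and ALK fusions signal through RAS, RAF, MEK and ERK, and active ERK switches on genes whose products shut the same pathway down. The DUSP proteins remove phosphate from MAP kinases, whereas Sprouty and SPRED proteins act upstream, near the receptor and RAS. Because their transcripts follow ERK activity closely, genes such as *DUSP6* and *SPRY4* are widely read as a transcriptional output of the pathway.

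Total counts were 14507228 to 20456341 per library. Counts of *FOS*, the edited gene, were 167 and 155 in control, 5448 and 1660 in *LA*, 4198, 4037 and 3528 in sgScr, and 1008 and 1113 in sg*FOS*. For *ALK*, both controls were at 0 counts, which allows up to 3 in each, against 2 and 15 in *LA*, 4, 1 and 3 in sgScr, and 2 and 0 in sg*FOS*. The replicates of control and of *LA* stood far apart, with chi-square values per degree of freedom of 134.3 and 62.34, against 1.761 to 2.724 for pairs of sgScr or sg*FOS* libraries. All 8 markers of A549 cells and epithelium were counted in every library, with summed levels of 32719 to 40573 counts per 1000000 (CPM) in control, 21681 to 29600 in *LA* and 20111 to 21912 in the other libraries, and *CDH1* among them at 18.5 and 21.9 CPM in control and 98.9 and 101 in *LA*. The part of this difference in the results was not tested. *CDKN2A*, which A549 cells have lost, had at most 1 count, and *PTPRC* and *CD3E* of white blood cells had 0 counts in all 9 libraries. The summed white blood cell list was 29.3 to 42.6 CPM in control, 13.9 to 15.5 in *LA* and 8.12 to 9.69 in the other libraries, nearly all of it *CD14*, and its part in the results was not tested. Summed markers of other lung epithelium and of endothelium stayed at or below 1.06 CPM, and those of fibroblasts were at 7.18 to 18.5 CPM, mostly *COL1A1*. In bulk libraries, fewer cells that express a gene and less of its RNA per cell cannot be told apart. The study compared *LA* with control and sg*FOS* with sgScr in separate sections. Neither it nor the sample titles say whether all groups were cultured or sequenced together. For sgScr against *LA* or control, culture, time and library preparation therefore cannot be told apart from the condition.

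Per kilobase of summed exon length, *DUSP1* was the most abundant of the 10 transcripts in all 4 groups and *SPRY1* the least. Mean levels of *DUSP1* were 44.4 CPM per kb in control, 237 in *LA*, 120 in sgScr and 109 in sg*FOS*. *SPRY1* stood at 0.758, 1.03, 1.68 and 1.32 CPM per kb in the same groups. *DUSP4* and *DUSP5* took the next places, at 21.8 and 20.7 CPM per kb in control with overlapping ranges, and *DUSP5* exceeded *DUSP4* only in *LA*, at 82.6 against 49.6. *SPRED2* followed in every group, at 5.03 CPM per kb in control and 10.1 to 11.1 in the fusion groups. The ranges of *SPRED1* and *SPRY2* overlapped in control, *LA* and sgScr, and in control no gene between *SPRED2* and *SPRY4* differed from its neighbor in the order beyond the spread of the libraries. *SPRY2*, *DUSP10* and *DUSP6* also overlapped in *LA*. When the length of the longest transcript replaced summed exons, 6 of the 10 places over all groups moved, with *DUSP4* then ahead of *DUSP5*.

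**Figure D1:**
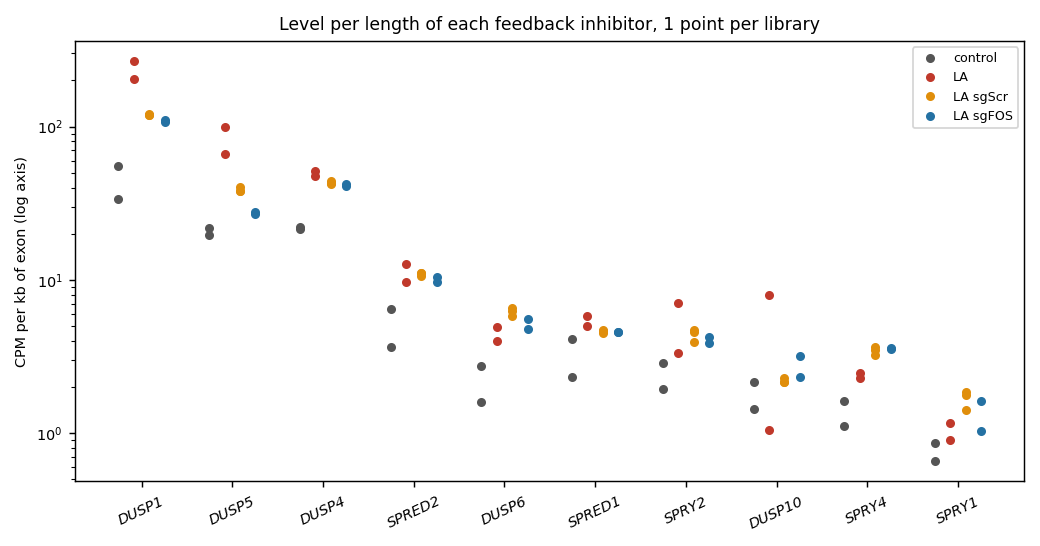
The level of each feedback inhibitor in CPM per kb of exon (vertical log axis) is plotted for each gene, with 1 point per library colored by group. *DUSP1*, *DUSP5* and *DUSP4* lie above the other 7 genes in every library, and *SPRY1* has the lowest mean in every group.

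*DUSP1* (ENSG00000120129, GRCh37 chr5:172195099-172198198, minus strand, 4 exons) and *DUSP5* (ENSG00000138166, chr10:112257665-112271291, plus strand, 4 exons) encode inducible phosphatases of the nucleus. DUSP1 acts on p38, JNK and ERK, and DUSP5 acts on ERK. They were the 2 members whose levels differed most between *LA* and control cells and that also fell in sg*FOS* cells, so the 150 reference bases before the annotated start of each canonical transcript are shown. They are read from GRCh37 on the strand of the gene, for *DUSP1* from chr5:172198199-172198348 and for *DUSP5* from chr10:112257515-112257664. Capitals mark the exact motif matches.
DUSP1: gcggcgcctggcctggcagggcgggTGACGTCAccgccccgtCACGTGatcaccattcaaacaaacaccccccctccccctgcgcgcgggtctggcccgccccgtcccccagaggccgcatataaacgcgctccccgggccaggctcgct
DUSP5: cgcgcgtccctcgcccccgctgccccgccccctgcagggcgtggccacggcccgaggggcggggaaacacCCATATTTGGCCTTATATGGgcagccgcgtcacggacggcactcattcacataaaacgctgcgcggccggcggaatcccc

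The capitals in *DUSP1* are a cyclic AMP response element, TGACGTCA, 125 to 118 bases before the start, and an E-box, CACGTG, 108 to 103 bases before it. Those in *DUSP5* are a pair of adjoining serum response elements, 80 to 71 and 70 to 61 bases before the start. Both strands of the 250 bases before the start were searched in all 10 members and in 19856 protein-coding promoters, with no overlap between the motifs found. Of all promoters, 2.4% held TGACGTCA, 7.88% held CACGTG and 1.12% held a serum response element, and in each case 1 member did. The AP-1 motif TGACTCA was in 3.06% of all promoters and the ETS motif CCGGAAG in 11.9%, and neither was in these windows of the 10 members. These matches describe letters and say nothing of binding.

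To see how the feedback inhibitors differed between cells with and without the fusion, *LA* was compared with control. *DUSP1*, *DUSP5* and *DUSP4* were higher in *LA* cells, by 5.24-fold, 3.91-fold and 2.24-fold. Fitted fold changes of the other 7 members were also above 1, from 1.33 to 2.43, and did not pass the test. Among counts simulated for this comparison, 4% of genes changed 2-fold were called. In edgeR's quasi-likelihood test, 3 of the 10 members were called higher at an adjusted *p* under 0.05, where 9.57% of the 14425 genes tested were called higher, and 0 were called lower, where 9.94% of all genes were, with all 10 fitted values above 0. At an unadjusted *p* under 0.05 in the same test, 6 members were higher, where 4977 of the 14425 genes passed in either direction. DESeq2 called 4 members higher and 0 lower, where 1551 and 1778 of 19753 genes were. With the criteria of the study's methods, which ask for a log2 fold change beyond 0.5 and *p* below 0.05 without adjustment, 6 members were higher, where 17.4% of all genes were. The median log2 fold change was 1.09 over the members and 0.044 over all genes tested.

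*DUSP1* was measured at 67.5 and 111 CPM in the control libraries and at 541 and 412 CPM in the *LA* libraries. The groups were well separated. The log2 fold change was 2.39 (SE 0.44, adjusted *p* = 0.00141), and without *LA* replicate 1 it was 2.14 and no longer called (adjusted *p* = 0.0590). *DUSP5* stood at 49.9 and 55.2 CPM in control and at 168 and 251 CPM in *LA*. Its groups were likewise separate, and most of the spread lay between the *LA* libraries. The log2 fold change was 1.97 (SE 0.41, adjusted *p* = 0.00278), and without *LA* replicate 2 it was 1.68 and no longer called (adjusted *p* = 0.181).

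*DUSP4* (ENSG00000120875, chr8:29190581-29208201, minus strand, 4 exons) encodes a nuclear phosphatase of ERK and other MAP kinases. It was measured at 157 and 160 CPM in control and at 346 and 375 CPM in *LA*, with nearly equal control libraries. The log2 fold change was 1.16 (SE 0.40, adjusted *p* = 0.0445). This call lay near the threshold: it was lost after correcting for transcript length and GC (log2 fold change 0.82, adjusted *p* = 0.0577), with the size factors of DESeq2 (adjusted *p* = 0.0538), and without control replicate 1, *LA* replicate 1 or *LA* replicate 2 (adjusted *p* = 0.0792, 0.376 and 0.429).

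*DUSP6* (ENSG00000139318, chr12:89741012-89746278, minus strand, 3 exons), the cytoplasmic phosphatase selective for ERK, was at 6.14 and 10.6 CPM in control and 19.1 and 15.3 CPM in *LA*. Both *LA* libraries were higher, with a log2 fold change of 1.01 (SE 0.47) that did not pass the test (adjusted *p* = 0.131). A lncRNA annotated on the opposite strand shares 1105 exon bases with *DUSP6*, and since the strand setting of the counting is not given in the sources used here, its reads may not be told apart from those of *DUSP6*. *DUSP10* (ENSG00000143507, chr1:221874766-221915431, minus strand, 4 exons), a phosphatase of the stress kinases p38 and JNK, was the exception to the separation of groups. It had 4.07 and 6.08 CPM in control, 2.95 CPM in *LA* replicate 1 and 22.5 CPM in *LA* replicate 2, or 48 against 403 counts. One *LA* library thus lay below both controls and the other above them. The log2 fold change of 1.28 (SE 0.63, adjusted *p* = 0.153) became -0.78 without *LA* replicate 2.

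The Sprouty proteins inhibit signaling between receptor tyrosine kinases and RAS and RAF. *SPRY2* (ENSG00000136158, chr13:80910111-80915261, minus strand, 2 exons) was at 6.20 and 9.20 CPM in control and at 10.6 and 22.7 CPM in *LA*. *SPRY4* (ENSG00000187678, chr5:141689992-141706020, minus strand, 2 exons) was at 10.7 and 7.26 CPM in control and at 16.1 and 15.0 CPM in *LA*. For both genes each *LA* library exceeded each control library. *SPRY1* (ENSG00000164056, chr4:124317950-124324915, plus strand, 3 exons) was the least abundant, at 2.58 and 3.42 CPM against 3.56 and 4.58 CPM, and its groups were separated by a narrow gap. None passed the test: log2 fold changes were 1.08 for *SPRY2* (adjusted *p* = 0.123), 0.78 for *SPRY4* (adjusted *p* = 0.240) and 0.41 for *SPRY1* (adjusted *p* = 0.670).

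SPRED proteins bring the RAS inhibitor neurofibromin to the membrane. *SPRED2* (ENSG00000198369, chr2:65537985-65659771, minus strand, 6 exons) was at 20.2 and 35.3 CPM in control and at 53.0 and 69.5 CPM in *LA*. The groups did not overlap, and the log2 fold change of 1.11 (SE 0.42) just missed the threshold (adjusted *p* = 0.0660). It was called by DESeq2 (adjusted *p* = 0.0493), with a filter at a mean of 50 counts (adjusted *p* = 0.0452), in a fit of all 9 libraries (adjusted *p* = 0.00589) and without control replicate 2 (adjusted *p* = 0.00846). *SPRED1* (ENSG00000166068, chr15:38545037-38649450, plus strand, 7 exons) was at 18.0 and 32.0 CPM in control and at 44.7 and 38.8 CPM in *LA*, with a log2 fold change of 0.71 (adjusted *p* = 0.249). In all, 9 of the 10 members were higher in both *LA* libraries than in both control libraries, as were 33.8% of all genes tested, and 0 were lower in both, as were 30.0% of all genes.

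Fold changes in this comparison moved with transcript length. Over the 13982 tested genes with a length, the log2 fold change had a Spearman rho of 0.523 with length and of -0.295 with GC content, given as a description across genes that share the same 4 libraries. Length here is that of the longest transcript, which is shortest among the members for *DUSP1*, at 2013 bases, and longest for *SPRED1*, at 7270. A loess curve on both properties was therefore also fitted to each library. After this length and GC correction *DUSP1* had a log2 fold change of 2.94 (adjusted *p* = 0.0107), *DUSP5* of 2.38 (adjusted *p* = 0.00705) and *SPRED1* of 0.066 (adjusted *p* = 0.885). The median over the members was then 0.95, beside 0.034 over all genes, and 2 members were called. A fit that took its spread from all 9 libraries called 8 members higher, where 3555 of the 14425 genes tested were. The exceptions were *SPRY1* and *DUSP10*. Without control replicate 2, log2 fold changes were 1.40 for *DUSP6*, 1.12 for *SPRED1* and 1.51 for *SPRED2*. Without *LA* replicate 1 *DUSP1* was at 2.14, and without *LA* replicate 2 *DUSP5* was at 1.68.

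**Figure D2:**
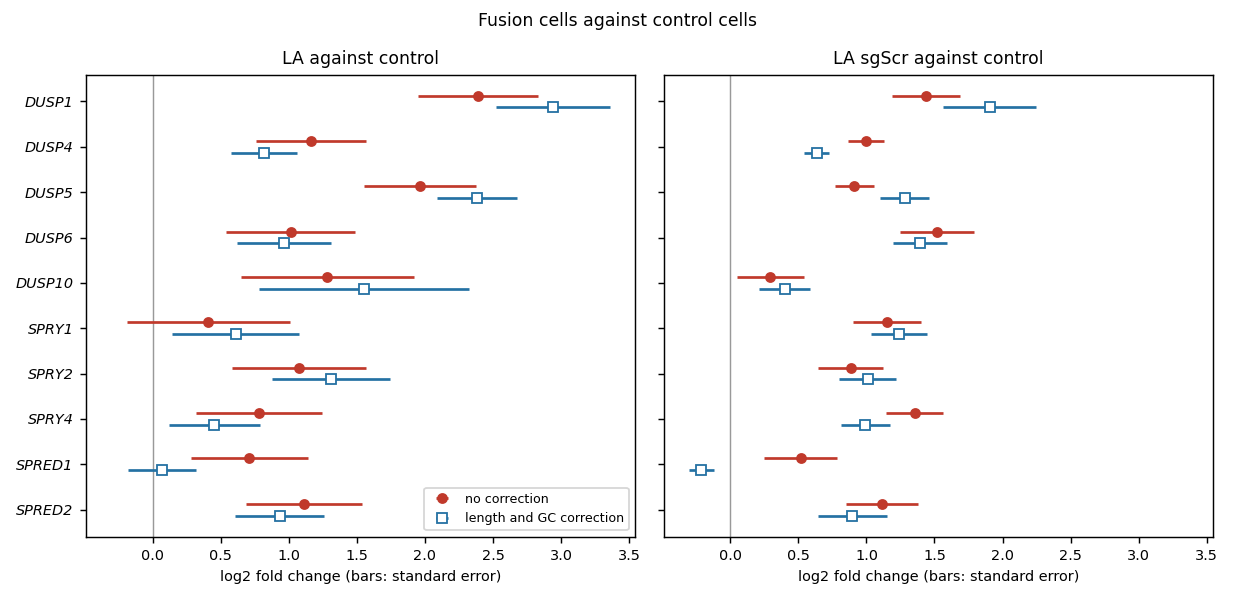
Log2 fold changes of the 10 members (horizontal axis) with standard errors as bars, for *LA* against control (left) and sgScr against control (right), without (filled) and with (open) the length and GC correction. Both panels use the same 2 control libraries; *SPRED1* lies near 0 on the left, and at -0.21 on the right, once corrected.

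The *FOS*-edited cells were compared with sgScr cells to ask which genes changed when *FOS* was targeted in fusion cells. *DUSP5* fell the most of the 3 members that changed, by 1.41-fold, *DUSP6* was 1.19-fold lower and *DUSP1* 1.10-fold lower. No Sprouty or SPRED gene passed the test. In edgeR's quasi-likelihood test, 3 of the 10 members were called lower, where 10.5% of the 14196 genes tested were, and 0 were called higher, where 12.2% were. DESeq2 called 2 lower and 0 higher, where 833 and 998 of 19742 genes were. In edgeR 4 members had an unadjusted *p* under 0.05, as had 4812 of the 14196 genes, the fourth member being *DUSP10* with a value above 0. The median log2 fold change was -0.11 over the members and -0.0015 over all genes. With the study's threshold on fold size, 0 members passed in either direction, where 2.03% of all genes were lower and 3.73% higher.

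*DUSP5* was measured at 102, 95.9 and 96.7 CPM in the sgScr libraries and at 68.4 and 70.3 CPM in the sg*FOS* libraries. All 3 sgScr libraries were far above both sg*FOS* libraries, and replicates differed little. The log2 fold change was -0.50 (SE 0.047, adjusted *p* = 9.1e-11), and the call held in every alternative except the fit of all 9 libraries and the study's threshold, which asks for a larger fold. *DUSP6* was at 22.4, 25.1 and 24.0 CPM in sgScr and at 18.5 and 21.4 CPM in sg*FOS*. The gap between its groups was small. The log2 fold change was -0.25 (SE 0.087, adjusted *p* = 0.0335), and the call was lost with DESeq2 (adjusted *p* = 0.169), in the fit of all 9 libraries, without sgScr replicate 2 (log2 fold change -0.21) and without sg*FOS* replicate 1 (log2 fold change -0.15). *DUSP1* was at 241, 242 and 241 CPM in sgScr and at 217 and 222 CPM in sg*FOS*, with a log2 fold change of -0.13 (SE 0.036, adjusted *p* = 0.00552). Its sgScr replicates were almost identical, and the call was lost in the fit of all 9 libraries and without sg*FOS* replicate 1 (adjusted *p* = 0.0926).

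None of the other members passed the test, although *DUSP10* and *SPRY1* had larger fitted changes than *DUSP6* and *DUSP1*, with wider standard errors. *DUSP4* was at 309, 312 and 321 CPM in sgScr and at 297 and 308 CPM in sg*FOS*, with a log2 fold change of -0.049 (adjusted *p* = 0.360). *SPRED2* was at 58.2 to 60.8 CPM in sgScr and at 57.6 and 53.6 CPM in sg*FOS* (log2 fold change -0.10, adjusted *p* = 0.176). *SPRED1* was at 34.7 to 36.3 CPM in sgScr and at 35.3 CPM in both sg*FOS* libraries, inside the sgScr range. *SPRY4* was at 21.3 to 24.0 CPM against 23.1 and 23.6 CPM, and *SPRY2* at 12.7 to 15.1 CPM against 13.6 and 12.4 CPM, and for both the groups overlapped. *SPRY1* stood at 5.63 to 7.33 CPM in sgScr and at 4.07 and 6.39 CPM in sg*FOS*. These overlapping groups gave a log2 fold change of -0.35 (SE 0.18, adjusted *p* = 0.156), and *SPRY1* was called without sgScr replicate 3 (log2 fold change -0.45) and without sg*FOS* replicate 2 (-0.71). *DUSP10* was the 1 member higher in both sg*FOS* libraries, at 6.58 and 8.98 CPM against 6.04 to 6.46 CPM, a difference that did not pass the test (log2 fold change 0.33, SE 0.15, adjusted *p* = 0.117) except without sg*FOS* replicate 1 (0.54, adjusted *p* = 0.0413). Groups were separate and lower in 5 members, as in 24.5% of all genes, and separate and higher in 1, as in 24.0%.

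The replicates behind this comparison were close, with a biological coefficient of variation of 0.0296 against 0.329 in *LA* against control. When the spread was taken from all 9 libraries, 0 members and 0 genes were called by edgeR, although 1 member and 431 genes had an unadjusted *p* under 0.05.

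**Figure D3:**
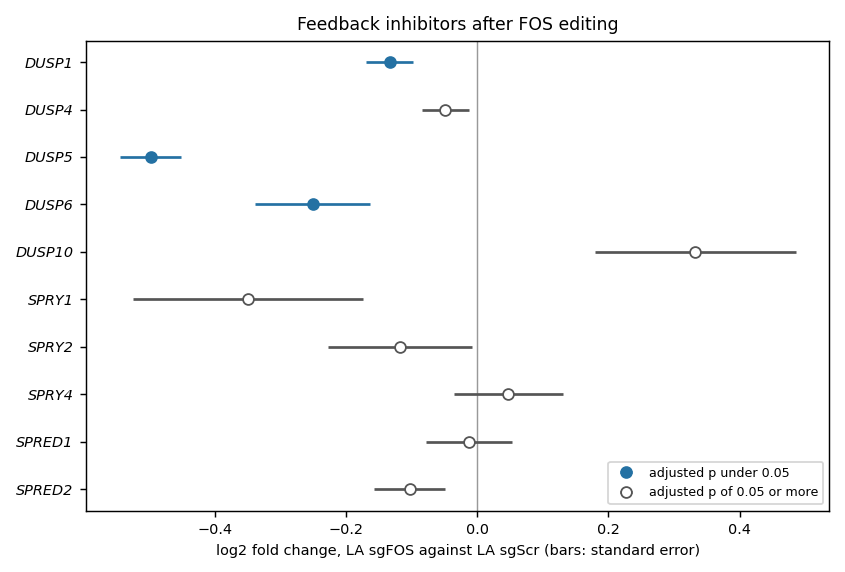
Log2 fold changes of the 10 members in sg*FOS* against sgScr (horizontal axis, bars are standard errors), with filled points for an adjusted *p* under 0.05 and open points for the others. *DUSP5* has the lowest value, at -0.50, and the open point of *SPRY1* is next, at -0.35 with a wide bar (SE 0.18). *DUSP6* and *DUSP1* are the remaining filled points, at -0.25 and -0.13.

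The sgScr cells are labelled as carrying the fusion too. Their *ALK* counts of 4, 1 and 3 did not clearly exceed the 3 that a control count of 0 allows. Neither did the 2 in *LA* replicate 1 or the 2 and 0 in sg*FOS*, whereas *LA* replicate 2 had 15. Setting the sgScr cells against control gave a second comparison of fusion-labelled with control cells. It uses the same 2 control libraries as *LA* against control, so the comparisons are not independent. Here 8 of the 10 members were higher in sgScr cells, where 19.8% of the 14482 genes tested were called higher, and 0 were lower, where 21.7% were. The 8 rose by 1.85-fold to 2.86-fold, and the exceptions were *SPRED1* and *DUSP10*. The median log2 fold change was 1.06 over the members and 0.019 over all genes. DESeq2 also called 8 members higher, where 3135 of 19856 genes were. All 10 fitted values were above 0. The study's threshold gave 8 higher, where 24.4% of all genes were, and 0 lower, where 25.1% were. In 9 members all sgScr libraries exceeded both controls, as in 35.9% of all genes, in 0 they all lay below, as in 33.3%, and *DUSP10* overlapped.

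*DUSP6*, at 22.4 to 25.1 CPM in sgScr against 6.14 and 10.6 CPM in control, had the largest fold, with a log2 fold change of 1.52 (SE 0.27, adjusted *p* = 0.0107), although after the length and GC correction *DUSP1* (1.90) was ahead of *DUSP6* (1.39). *DUSP1* followed with 1.44 (SE 0.25, adjusted *p* = 0.00987), and *SPRY4*, at 21.3 to 24.0 against 7.26 and 10.7 CPM, with 1.35 (SE 0.21, adjusted *p* = 0.00824). For all 3 genes the lowest sgScr library was well above the higher control. Log2 fold changes were 1.15 for *SPRY1* (adjusted *p* = 0.0170), 1.11 for *SPRED2* (adjusted *p* = 0.0221), 1.00 for *DUSP4* (adjusted *p* = 0.00663), 0.91 for *DUSP5* (adjusted *p* = 0.00845) and 0.88 for *SPRY2* (adjusted *p* = 0.0312). *SPRED1* had 0.52 (adjusted *p* = 0.165), which became -0.21 with the length and GC correction, and *DUSP10* had 0.29 (adjusted *p* = 0.368). Length again moved with the fold change, with a Spearman rho of 0.541 over 14040 genes, and after correction 8 members were still called with a median of 1.00. Leaving out any of the 3 sgScr libraries ended all 8 calls, with adjusted *p* of 0.0551 to 0.118. Only 3 to 130 genes of the whole table were then called. In those fits 8 members still had an unadjusted *p* under 0.05, as had 5366 to 5557 of the 14162 to 14386 genes tested.

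The 2 sets of fusion libraries were also set against each other. *DUSP1* and *DUSP5* were 2.004-fold and 2.17-fold lower in sgScr than in *LA* cells, and *SPRY4* was 1.44-fold higher. In edgeR's quasi-likelihood test 2 members were called lower, where 12.3% of the 14521 genes tested were, and 1 higher, where 10.6% were. The study's threshold gave 2 lower, where 15.2% of all genes were, and 2 higher, where 10.7% were. The log2 fold changes were -1.003 for *DUSP1* (SE 0.12, adjusted *p* = 0.00565), -1.11 for *DUSP5* (SE 0.17, adjusted *p* = 0.00973) and 0.52 for *SPRY4* (SE 0.12, adjusted *p* = 0.0269). *DUSP6* (0.45, adjusted *p* = 0.0602) and *SPRY1* (0.69, adjusted *p* = 0.0679) were higher in all 3 sgScr libraries and did not pass. *DUSP4* (-0.22, adjusted *p* = 0.101) and *SPRED1* (-0.25, adjusted *p* = 0.127) were lower in all 3 and did not pass, and the groups of *DUSP10*, *SPRY2* and *SPRED2* overlapped. Separate groups were thus higher in 3 members, as in 29.5% of all genes, and lower in 4, as in 27.2%. All 3 calls were lost without any 1 sgScr library. In those fits 3 or 4 members had an unadjusted *p* under 0.05, as had 3846 to 3946 of the 14345 to 14480 genes tested. Leaving out *LA* replicate 1 or *LA* replicate 2 gave opposite signs for *DUSP10* (-1.86 and 1.05), *SPRY2* (-0.69 and 0.39) and *SPRED2* (-0.22 and 0.16). The call of *SPRY4* was also lost in the fit of all 9 libraries (adjusted *p* = 0.108).

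**Figure D4:**
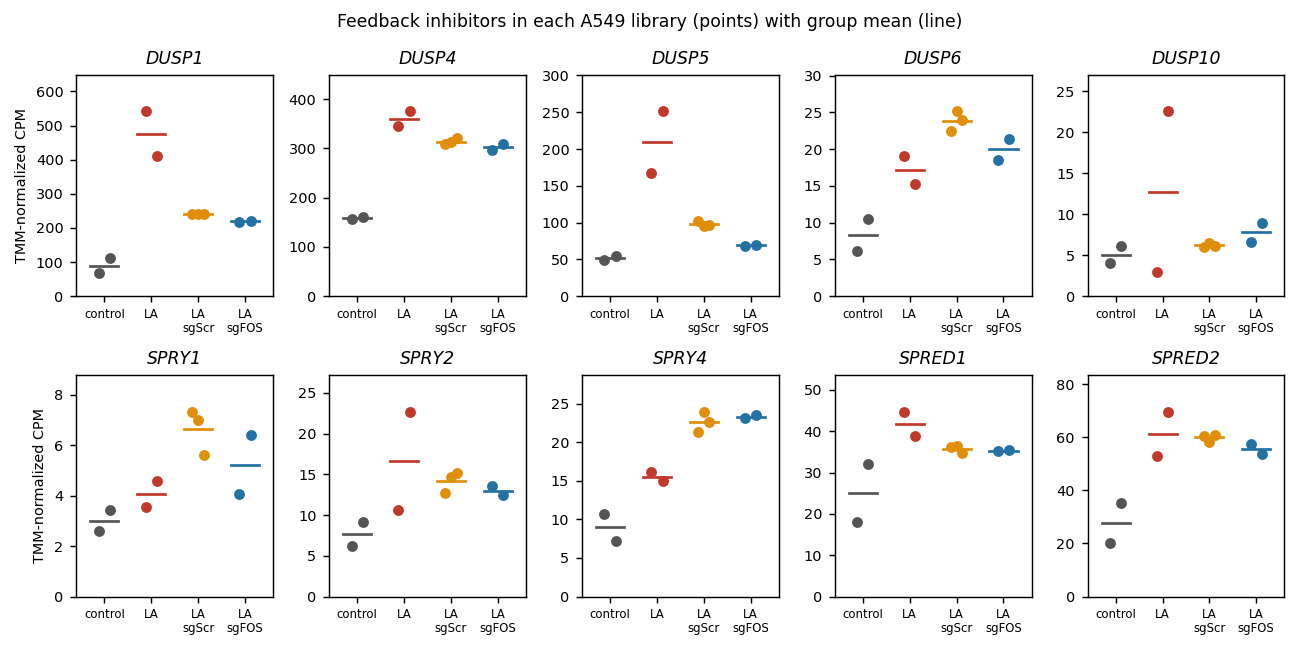
Levels of the 10 members in TMM-normalized CPM (vertical axis, starting at 0) in each library (points) with the group mean (line), for control, *LA*, sgScr and sg*FOS*. *DUSP1* and *DUSP5* are highest in *LA*, *DUSP6*, *SPRY1* and *SPRY4* are at least as high in sgScr as in *LA*, and the *LA* points of *DUSP10* lie at 2.95 and 22.5 CPM.

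Across the 4 groups the members thus fell into different orders. *DUSP1*, *DUSP4*, *DUSP5* and *SPRED1* had their highest mean in *LA*, as did *DUSP10*, *SPRY2* and *SPRED2*, whose *LA* replicates spanned the values of sgScr. *DUSP6* and *SPRY1* had theirs in sgScr, and *SPRY4* in sg*FOS* by a margin inside the range of sgScr. In the likeness of their patterns over the 9 libraries, measured as the root mean square difference of centred log2 CPM, *DUSP1* and *DUSP5* were each other's nearest member, at 0.414, and *DUSP4* and *SPRED2* were at 0.210. *DUSP10* was the farthest member from 6 of the other 9. Among the 11880 genes that averaged 50 counts or more, those nearest to *DUSP6* were *FER* (0.0814), *CLIP1* (0.0993) and *GPD2* (0.102), those nearest to *SPRY4* were *WASF2* (0.0987), *FNBP1* (0.118) and *NOTCH1* (0.119), and those nearest to *DUSP1* were *NRCAM* (0.147), *SCN9A* (0.154) and *EPAS1* (0.180). These values describe 9 libraries in 4 groups and carry no test.

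Lists of related genes were read in the same fits, and values in parentheses below are log2 fold changes. Of all genes tested, 9.57% were called higher and 9.94% lower in *LA* against control, and 12.2% and 10.5% in sg*FOS* against sgScr. The shares were 10.6% and 12.3% in sgScr against *LA*, and 19.8% and 21.7% in sgScr against control. Of 7 further MAP kinase phosphatase, Sprouty and SPRED genes, 6 were tested in *LA* against control. *DUSP16*, a phosphatase of JNK and p38, was higher (log2 fold change 1.67, adjusted *p* = 0.00639, and in sgScr against control 1.37, adjusted *p* = 0.00611, or 0.76 after the length and GC correction), and the list's median was 0.57. In sg*FOS* against sgScr 0 of the 6 were called by edgeR, 0 by DESeq2 and 0 reached an unadjusted *p* under 0.05, and in sgScr against *LA* *SPRED3* (-1.31, adjusted *p* = 0.0201) and *DUSP16* (-0.36, adjusted *p* = 0.0322) were lower. The atypical dual specificity phosphatases, most of which are not MAP kinase feedback genes, went the other way in sign: of 10 tested in *LA* against control, 9 had values below 0 and 1 was called, *DUSP23* (-1.64, adjusted *p* = 0.0124), which with the length and GC correction was at -0.16 (adjusted *p* = 0.684) and which was not called without control replicate 1 (-0.98). With the length and GC correction, the list's median in *LA* against control went from -0.38 to -0.11, and 0 were called. In sgScr against control 4 of 11 were lower, where 21.7% of all genes were, among them *DUSP15* (-2.64), *DUSP23* (-2.05) and *DUSP28* (-1.69). After the length and GC correction 2 were lower and 1 higher, with *DUSP15* not called (-1.83, adjusted *p* = 0.0718), *DUSP23* at -0.51 and *DUSP28* at -1.89. Without control replicate 1, *DUSP15* was at -1.85 and *DUSP23* at -1.36, and without sgScr replicate 3 *DUSP15* was at -3.32 and not called (adjusted *p* = 0.0706). In sg*FOS* against sgScr *DUSP3* (0.21, adjusted *p* = 0.000130) and *DUSP23* (0.28, adjusted *p* = 0.0321, or 0.111 after the length and GC correction) were higher and *DUSP18* (-0.40, adjusted *p* = 0.0462) lower. In sgScr against *LA* *DUSP18* (0.65, adjusted *p* = 0.0504 after that correction) was higher and *DUSP28* (-0.84) and *DUSP23* (-0.47) were lower.

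The other ERK output genes, 16 in all, were led by immediate-early transcription factor genes. In *LA* against control 3 were higher, where 9.57% of all genes were, with a median of 0.29. They were *EGR1* (4.61, adjusted *p* = 9.8e-06), *FOS* (4.41, adjusted *p* = 2.0e-05) and the receptor gene *EPHA2* (1.62, adjusted *p* = 0.0105). The *LA* replicates stood apart, at 171 and 54.2 CPM for *EGR1* and at 334 and 92.7 CPM for *FOS*. Without *LA* replicate 1 the values were 3.52 and 3.16, and without *LA* replicate 2 they were 5.23 and 5.07, all still called. In sgScr against control 7 were higher, where 19.8% of all genes were, with a median of 0.56. The largest values were those of *EGR1* (5.77), *FOS* (4.34) and *LIF* (0.94). In sg*FOS* against sgScr they moved in both directions, with 7 lower, where 10.5% of all genes were, and 5 higher, where 12.2% were. DESeq2 called 5 lower and 4 higher there, and the fit of all 9 libraries called 0. *FOS* itself was lower (-1.48, adjusted *p* = 2.0e-25), whereas the sphingosine kinase gene *SPHK1* (0.59, adjusted *p* = 0.00202) and the cyclin gene *CCND1* (0.44, adjusted *p* = 4.9e-13) were higher. In sgScr against *LA* *ETV1* (0.74) and *ETV5* (0.40), ETS factor genes, were higher and *CCND1* (-0.36) was lower.

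Genes of the ERK cascade itself changed in both directions. Of 17, 3 were higher and 1 lower in *LA* against control, where 9.57% and 9.94% of all genes were. The median of 0.70 became 0.19 with the length and GC correction, with 1 called in each direction. The largest changes were those of the scaffold gene *KSR1* (2.15, adjusted *p* = 0.00381), *HRAS* (-1.96, adjusted *p* = 0.00471, and -1.02 corrected) and *BRAF* (1.46, adjusted *p* = 0.0481, and 0.64 and not called once corrected). *HRAS* was at -1.15 without control replicate 1 and at -2.57 without control replicate 2. In sgScr against control 9 were higher and 3 lower, where 19.8% and 21.7% of all genes were. They were led by *KSR1* (2.42), *HRAS* (-1.84, or -0.86 corrected) and *MAP2K2* (-1.81), and the median of 0.64 became 0.25 with the correction. Without control replicate 1, *MAP2K2* was at -1.22, and the fold of *HRAS* also moved by over 1.5 times toward 0 and was still called. In sg*FOS* against sgScr 2 were higher and 2 lower, *HRAS* (0.20), *MAP2K2* (0.19) and *SOS1* (-0.18) having the largest values. There DESeq2 called 1, and with the correction *MAP2K2* alone was called (0.11, adjusted *p* = 0.0338). In sgScr against *LA* only *SHC1* (0.58, adjusted *p* = 0.00686) was called. Of 12 genes of the p38 and JNK cascades, *MAP3K1* was higher in *LA* against control (2.11, adjusted *p* = 0.00489), which was not called after the correction (adjusted *p* = 0.0510) or without *LA* replicate 2 (1.49). In sgScr against *LA* it was lower (-1.28, or -0.62 without *LA* replicate 2), as was *MAP2K6* (-0.58). *MAP2K3* was higher in sg*FOS* against sgScr (0.15), a call that was lost with the correction (adjusted *p* = 0.139). In sgScr against control *MAPK14* (0.70) was higher and *MAPK12* (-0.97) and *MAPK11* (-0.97) were lower, and with the correction *MAPK11* was at -0.23 and not called (adjusted *p* = 0.261).

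The last list held other negative regulators of the pathway. Of its 13 genes, 6 were higher in *LA* against control, where 9.57% of all genes were, with a median of 1.03. *RASAL2* (2.06, adjusted *p* = 0.00576) and *NF1* (1.89, adjusted *p* = 0.00391) encode proteins that switch RAS off, NF1 being the partner of the SPRED proteins, and *SOCS3* (1.82, adjusted *p* = 0.00697) encodes an inhibitor of cytokine signaling. With the length and GC correction the median was 0.81 and 2 were called, *SOCS3* (2.28) and *NF1* (0.94), while *RASAL2* was at 1.10 (adjusted *p* = 0.0919). *RASAL2* was at 1.42 without control replicate 1 and at 3.06 without control replicate 2. In sgScr against control 9 were higher and 1 lower, where 19.8% and 21.7% of all genes were, with a median of 1.16 (0.79 corrected). Among the 9 were *NF1* (2.04), the ubiquitin ligase gene *CBL* (2.03) and *IL17RD* (1.76), which encodes another antagonist of growth factor signaling. Corrected values were 1.06 for *NF1*, 1.16 for *CBL* and 1.05 for *IL17RD*. In sg*FOS* against sgScr *ERRFI1*, which encodes an inhibitor of EGFR (-0.25, adjusted *p* = 4.3e-06), and *NF1* (-0.11, adjusted *p* = 0.0245, or 0.123 with the correction) were lower. In sgScr against *LA* *IL17RD* (1.07) was higher and 3 were lower, with *CBLB* (-0.89) and *RASA2* (-0.73) ahead. Over these 6 lists, at most 2 genes per list were still called in *LA* against control without 1 of the *LA* libraries. Without 1 of the sgScr libraries, at most 2 per list were called in sgScr against control and 0 in sgScr against *LA*.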

How the data were processed

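RNA-seq counts of 9 A549 libraries were analysed. The deposited values are raw counts, whole numbers of reads assigned to each gene by the authors and not normalized. The methods and the submitters' processing notes state stranded paired-end libraries, alignment to hg19 with STAR 2.7.10b and testing with DESeq2 1.26.0. The counting program, annotation and strand setting are not given in the sources used here. All 9 columns were assigned to samples by their names. The 28 gene names that look like dates were kept in library sizes and tests.

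Counts were tested in R 4.3.3 with edgeR 4.0.16 (TMM, filterByExpr, two-sided quasi-likelihood test), fitting only the groups compared, with Benjamini-Hochberg adjustment over all genes tested and calls at an adjusted *p* under 0.05. Levels are CPM on TMM-adjusted library sizes. Positions, lengths and promoters came from GENCODE v44 mapped to GRCh37, which is the hg19 assembly. Of the gene names, 22494 matched directly and 1332 through an older symbol, and 23826 had a length. The alternatives were DESeq2 1.42.0, other normalizations, filters and thresholds, a replicate block, a shared fit of all 9 libraries, a loess correction of span 0.5 for transcript length and GC content, and leaving out each replicate. The same fits were applied to the gene lists after the data were seen. Plots were drawn with Python 3.11.15. The procedures were tested on simulated counts with 200 changed genes averaging at least 50 counts. In *LA* against control, 4% of 2-fold and 65% of 4-fold changes were called, and 1.43% of calls were false. The values were 99%, 100% and 5.24% in sg*FOS* against sgScr, and 70%, 99% and 9.63% in sgScr against *LA*. In sgScr against control they were 37%, 98% and 4.26%.

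The members and lists were chosen with earlier results of these data known. The text names all members, *FOS* and *ALK*, the called genes of each list (up to the 3 with the largest fold change), and the 3 genes most like *DUSP6*, *SPRY4* and *DUSP1*. Total counts were 14507228 to 20456341. A count of 0 allows up to 3, which covers counting error only, as the reads carry no molecular identifiers.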

Additional observations from a re-analysis of the deposited data

How the results depend on the processing

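Most member fold changes held their sign and side of the threshold, many of them as values that stayed uncalled. Every call of a member, in each comparison, was lost under some alternative. The cause of the changes below was not tested. The limits are the 2 or 3 libraries per group, the wide spread between control and between *LA* replicates, and low counts of *SPRY1* and *DUSP10*. Leaving out a replicate of a pair assumes that the lone library varies like the others.

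Members called in *LA* against control (3) were 8 with all 9 libraries in a single fit and 6 under the study's threshold, and genes called (2814) were 6770, 1519 with the block, 1739 with the length and GC correction, 1132 at an adjusted *p* under 0.01 and 4977 under the study's threshold. In sg*FOS* against sgScr (3 members, 3221 genes) they were 0 and 0 with all 9 libraries and 0 and 818 under the study's threshold, with 1831 genes by DESeq2 and 2023 at 0.01. In sgScr against *LA* (3 and 3327), 5 members were called with the length and GC correction, and 1447 genes with all 9 libraries, 1230 with the block and 815 at 0.01. In sgScr against control (8 and 6009), 5 members and 3480 genes were called with the block and 4 and 1707 at 0.01. Leaving out 1 replicate gave 1 to 6 members and 253 to 5078 genes, 2 to 4 and 1916 to 3518, 0 to 9 and 389 to 9926, and 0 to 10 and 3 to 11715 in the same order. The replicate numbers share only a number: deviations of same-numbered libraries correlated at -0.29 in *LA* against control and from -0.17 to 0.067 in the others. With that number as a block, *DUSP4* in *LA* against control (adjusted *p* = 0.135), *SPRY4* in sgScr against *LA* (0.211), and *DUSP4*, *DUSP5* and *SPRY2* in sgScr against control (0.0668, 0.0771 and 0.115) were not called, and *SPRY1* in sg*FOS* against sgScr was (0.0477). Other negative regulators called in sgScr against *LA* went from 4 to 0, and other ERK output genes in sgScr against control from 7 to 2.

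Signs turned for *DUSP10* in *LA* against control (-0.78 to 2.09 over leaving out 1 replicate, negative without *LA* replicate 2), for *SPRED1* in sg*FOS* against sgScr (0.071 with the length and GC correction, -0.031 to 0.0021 over leaving out 1 replicate, positive without sgScr replicate 2) and in sgScr against control (-0.21 with that correction), and in sgScr against *LA*, by leaving out *LA* replicate 1 or 2, for *DUSP10* (-1.86 to 1.05), *SPRY2* (-0.69 to 0.39) and *SPRED2* (-0.22 to 0.16), all positive without *LA* replicate 2.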
